A study of Populus deltoides with 38 samples.

Results

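Leaves of the eastern cottonwood Populus deltoides grown without sulfate were compared with leaves grown at high sulfate, both while the plants were exposed to cadmium (Cd). The comparison was chosen by its treatment labels and holds 6 of the 38 samples of the series, 3 mRNA libraries of the low-sulfate group (0 µM sulfate with 50 µM CdCl2) and 3 of the high-sulfate group (1500 µM sulfate with 50 µM CdCl2). All plants were of the strain labelled monilifera (Aiton) Eckenw, were rooted from stem cuttings, and were 89 days old. They received their sulfate level for 12 days, and then CdCl2 with that sulfate level for 21 days in hydroponics. The same sulfate contrast without CdCl2 (3 against 3 libraries) and the middle group (100 µM sulfate with 50 µM CdCl2, 3 libraries) are given beside it where stated. The labels do not say from which of the 72 plants each library came, so the tests gauge variation among these libraries only, and that variation may be technical.

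Plants take up sulfur as sulfate, reduce it, and build it into cysteine, methionine and glutathione. Glutathione is also the building block of phytochelatins, the peptides with which plants bind Cd, so a plant exposed to Cd draws on its sulfate supply. When sulfate is short, plants raise the microRNA miR395, which guides the cutting of transcripts for ATP sulfurylase, the first enzyme of sulfate activation, and for a sulfate transporter of the vasculature.

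The mRNA values were FPKM, fragments scaled to locus length and library depth. The files list 39572 loci, and the 23166 that averaged 1 FPKM or more over the 18 mRNA libraries were tested. Each locus carries a number (XLOC), coordinates, and mostly 1 or more gene identifiers beginning with Potri, the naming used for Populus trichocarpa. None of the 39512 identifiers matched the reference gene table used here, so loci are given by identifier only, and the leaf label could not be checked against marker genes. A locus is tied to a pathway here only where the degradome tables list its transcript as cut by a named microRNA. Log2(FPKM + 1) correlated across loci at r = 0.955 to 0.970 among the low-sulfate libraries, at 0.966 to 0.976 among the high-sulfate libraries, and at 0.918 to 0.957 between the groups. On the first principal component of the 9 libraries with Cd (40.0% of the variance), the low-sulfate libraries lay at 34.2 or above and the high-sulfate libraries between -34.2 and -17.8. FPKM files hold no library totals, but the most common ratio between values below 1 FPKM gives relative depth: taking low-sulfate library 1 as 1, low-sulfate libraries 2 and 3 held about 0.735 and 0.874 as many fragments, and the high-sulfate libraries 0.719, 0.572 and 0.755. Depth thus moved partly with the groups, and its part in the results was not tested.

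At low sulfate under Cd, 4699 of the 23166 tested loci (20.3%) changed against high sulfate (limma, Benjamini-Hochberg adjusted p under 0.05, termed called below). Of these, 2492 (10.8%) were higher and 2207 (9.53%) were lower at low sulfate. The median change of the risen loci was 0.51 on the log2 scale and that of the fallen loci was -0.61, against 0.02 over all tested loci. Changes of at least 2-fold were called at 764 loci, of which 282 rose (1.22% of tested loci) and the rest fell (2.08%), and changes of at least 8-fold at 21 risen and 31 fallen loci. With a pseudocount of 5 in place of 1 FPKM, the 2-fold calls numbered 416.

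The libraries of the groups did not overlap at 8195 loci (35.4%), and among them were 2418 loci called higher and 2129 called lower, while 152 called loci had overlapping groups. The number of calls depended on single libraries: it was 2963 without high-sulfate library 2 and 3018 without low-sulfate library 1, and it was 2226 when only the 6 libraries compared entered the fit. Of those last 2226 calls, 2135 were among the 4699 with the same direction.

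Counting all called loci, those of low abundance rose more often than they fell, and abundant loci the reverse. Among 6955 loci with a mean of 1 to 5 FPKM, 7.02% were called higher and 4.62% lower at low sulfate. Among the 9180 loci between 5 and 20 FPKM the shares were 13.4% and 8.56%. Between 20 and 100 FPKM (5819 loci) they were 11.1% and 15.4%, and at 100 FPKM and above (1212 loci) 10.7% and 16.8%. Among changes of at least 2-fold, falls outnumbered rises in every class, with 57 higher and 93 lower at 1 to 5 FPKM and 95 higher and 161 lower at 5 to 20 FPKM. The median standard error of the change was 0.18 in the lowest class and 0.12 to 0.16 on the log2 scale in the others. Along the 19 chromosomes the share called higher ran from 8.95% on chromosome 3 to 12.8% on chromosome 18, and the share called lower from 6.85% on chromosome 17 to 11.3% on chromosome 19.

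**Figure D1:**
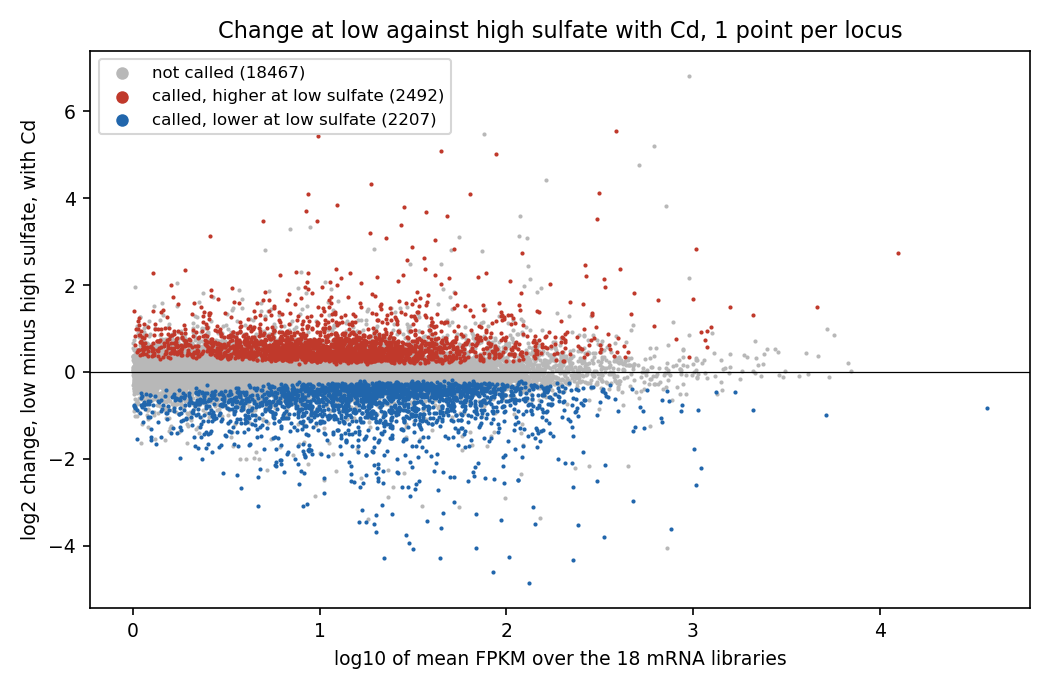
Change of each of the 23166 tested loci at low against high sulfate with Cd (vertical axis, log2 scale) by its mean level over the 18 mRNA libraries (horizontal axis, log10 of FPKM). Red points are the 2492 loci called higher, blue points the 2207 called lower and grey points those not called, and blue outnumbers red among loci of 20 FPKM and more.

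The locus with the clearest rise that was measured in both groups was Potri.009G118100 (chromosome 9, 9929631 to 9932064, build not given). It stood at 161, 264 and 209 FPKM in the low-sulfate libraries and at 11.6, 11.7 and 10.4 FPKM in the high-sulfate libraries, with 22.0, 18.6 and 17.3 FPKM at middle sulfate. The groups lie far apart, and the fitted change was 4.09 ± 0.24 (SE) in log2 units (limma, adjusted p = 2.3e-07). Without Cd it also rose, from 8.80 ± 2.69 to 121 ± 39.8 FPKM (SD, n = 3 each; change 3.62 ± 0.24), and the difference between the changes was 0.47 ± 0.34 (limma, adjusted p = 0.54).

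Potri.006G099000 (chromosome 6, 7613290 to 7617918) was at 44.6, 49.2 and 33.9 FPKM at low sulfate and was listed at 0 in all 3 high-sulfate and all 3 middle-sulfate libraries with Cd. It was listed at 0 in the 3 high-sulfate libraries without Cd as well, and stood there at 35.9, 5.80 and 6.45 FPKM at low sulfate. Potri.002G148700 (chromosome 2, 11035928 to 11041674), a weakly expressed locus, followed the same on and off pattern: 4.23, 4.03 and 3.37 FPKM at low sulfate with Cd, 4.32, 3.65 and 3.32 FPKM at low sulfate without Cd, and 0 in each of the 9 other libraries of these groups and of middle sulfate with Cd. Both rises were called (limma, adjusted p = 3.7e-06 and 4.8e-08). A listed 0 can be a failed estimate, and no fold is given against a group at 0.

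In all, 4 loci called higher were listed at 0 in the 3 high-sulfate libraries with Cd, and 0 loci called lower were listed at 0 in the 3 low-sulfate libraries. The other two, named here after their values were seen, were short and weakly measured: Potri.011G074300 at 3.52, 2.78 and 1.16 FPKM and Potri.016G099600 at 7.76, 21.2 and 5.96 FPKM at low sulfate with Cd. Neither was at 0 throughout the other groups: Potri.011G074300 was measured in all 3 middle-sulfate libraries with Cd and Potri.016G099600 in 1 of them.

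The other locus among the largest rises was XLOC_006576 (chromosome 2, 6598009 to 6604814), 1 of 3 loci that share the identifier Potri.002G092500, so that its reads could be split between them. It fell stepwise with sulfate under Cd, from 94.0, 85.0 and 57.4 FPKM at low sulfate over 32.6, 16.4 and 26.9 FPKM at middle sulfate to 1.69, 2.11 and 0.416 FPKM at high sulfate. The change was 5.10 ± 0.86 in log2 units (limma, adjusted p = 0.0013). Without Cd the groups overlapped, at 86.6, 97.2 and 40.2 FPKM at low and 97.1, 14.3 and 52.4 FPKM at high sulfate, but the difference between the changes did not pass the test (limma, adjusted p = 0.083).

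Among the falls, Potri.012G032700 (chromosome 12, 2895650 to 2897159) had the smallest p. It was at 146, 77.1 and 95.7 FPKM at low sulfate and at 1118, 1265 and 1447 FPKM at high sulfate, a change of -3.62 ± 0.19 in log2 units (limma, adjusted p = 7.3e-08). Its middle-sulfate libraries, at 914, 1116 and 1007 FPKM, lay near the high-sulfate ones, and without Cd it fell by 3.12 ± 0.19 on the log2 scale. The locus that joins Potri.009G088000 and Potri.009G088100 (chromosome 9, 8160776 to 8164971) stood at 16.8, 13.6 and 13.7 FPKM at low against 48.5, 50.4 and 53.4 FPKM at high sulfate with Cd. The change was -1.73 ± 0.10 on the log2 scale with Cd and -1.50 ± 0.10 without Cd (limma, adjusted p = 2.3e-07 with Cd). At neither locus did the difference between the changes pass the test (limma, adjusted p = 0.38 and 0.46).

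The falls with the largest fitted size were less even. Potri.008G101000 (chromosome 8, 6360375 to 6362188) was at 1.35, 2.88 and 81.4 FPKM at low sulfate and at 182, 277 and 353 FPKM at high sulfate. Low-sulfate library 3 thus lay far above the other libraries of its group, though below all high-sulfate libraries. The change was -4.85 ± 1.39 in log2 units (limma, adjusted p = 0.026). It was -6.44 without low-sulfate library 3 (limma, adjusted p = 0.0055), and the call was lost without any one of the other 5 libraries compared, with adjusted p from 0.052 without high-sulfate library 1 to 0.11 without low-sulfate library 1 (limma). The call was also lost when only the 6 libraries compared were fitted. Potri.006G158900 (chromosome 6, 14932161 to 14936982) stood at 4.23, 6.09 and 11.8 FPKM at low and at 192, 258 and 134 FPKM at high sulfate, a change of -4.60 ± 1.14 (limma, adjusted p = 0.013). Its middle-sulfate libraries lay between, at 49.0, 27.5 and 24.7 FPKM.

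**Figure D2:**
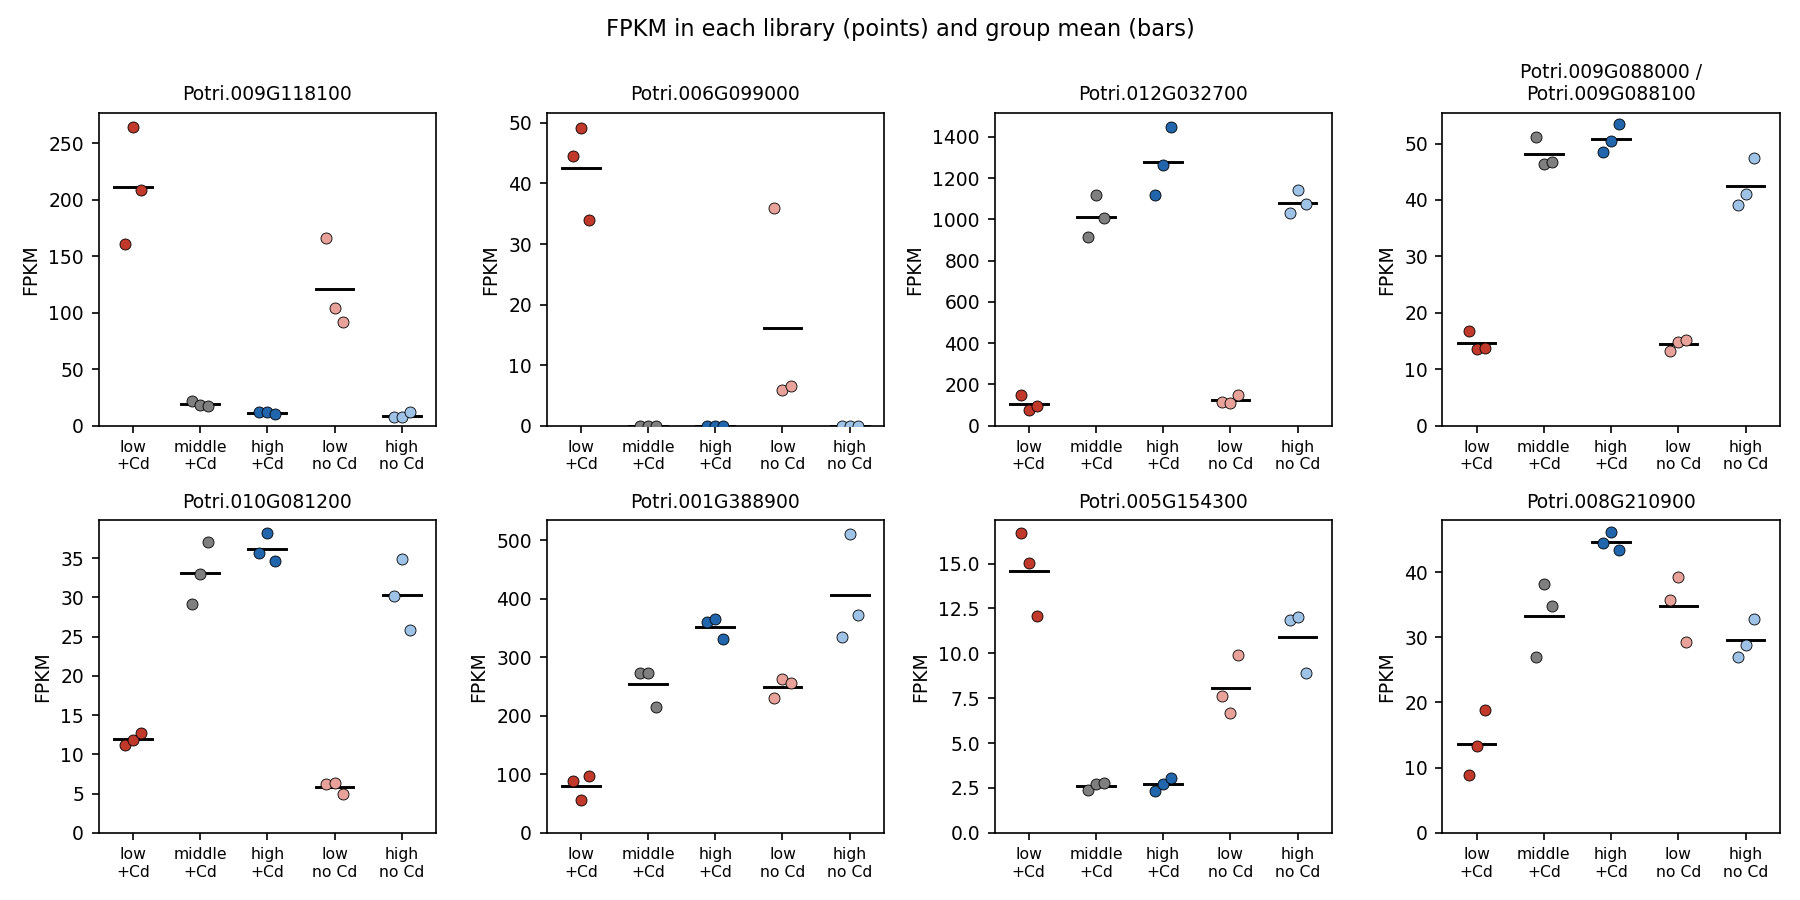
FPKM in every library of 5 groups (points, 3 libraries each, bars at the group mean, linear axes from 0) for 8 loci named in the text. Potri.009G118100 and Potri.012G032700 separate low from high sulfate with and without Cd, whereas Potri.005G154300 and Potri.008G210900 separate them only in the libraries with Cd; at both of these the difference between the changes was called.

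The most abundant loci that rose carried no identifier. XLOC_030107 (chromosome 13, 14839061 to 14839215) was at 26974, 23001 and 6675 FPKM at low sulfate and at 2089, 2949.8 and 2277 FPKM at high sulfate, a change of 2.73 ± 0.53 in log2 units (limma, adjusted p = 0.0026), which was 3.37 without low-sulfate library 3. XLOC_005828 (chromosome 2, 17465805 to 17465969) rose by 1.49 ± 0.31, from 1591 ± 226 to 4463 ± 637 FPKM (SD, n = 3 each). XLOC_027160 (chromosome 12, 860929 to 861098) rose from 881 ± 276 to 2153 ± 499.7 FPKM (limma, adjusted p = 0.014), and lost its call without low-sulfate library 1 or high-sulfate library 1 (limma, adjusted p = 0.052 and 0.057). All 3 span fewer than 200 bases, a length at which FPKM divides by a small number.

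Of the 544 tested loci without an identifier, 104 were called higher and 16 lower, with a median change of 0.39 on the log2 scale. Their called share of 22.1% stands beside 20.3% of all tested loci. The direction differs: over all tested loci the 2492 and 2207 calls were nearly balanced.

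The most abundant loci that fell were Potri.001G400200 and Potri.001G400100, listed at the same span of chromosome 1 (42186604 to 42187952), so that their reads could be split. Potri.001G400200 was at 20243, 29637 and 22872 FPKM at low sulfate and at 39951, 34716 and 56289.9 FPKM at high sulfate, a change of -0.84 ± 0.26 in log2 units (limma, adjusted p = 0.032). Potri.001G400100 fell by 1.00 ± 0.29 in log2 units (limma, adjusted p = 0.024). Neither call held without low-sulfate library 1 or 3 or high-sulfate library 1 or 3 (limma, adjusted p from 0.058 to 0.12 for Potri.001G400200), and quantile normalization ended the call of Potri.001G400200 (limma, adjusted p = 0.21). Potri.010G150800 (chromosome 10, 15938396 to 15939837) was steadier, at 1276, 1119 and 1569 FPKM against 2587, 2795 and 1956 FPKM, a change of -0.89 ± 0.20 (limma, adjusted p = 0.0063). Each of these calls was lost when only the 6 libraries compared were fitted.

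The middle-sulfate group, whose libraries entered the fit and the filter but not the contrast, lay near high sulfate at the called loci. At loci that rose, the median level on the log2(FPKM + 1) scale was 3.95 in the low-sulfate group, 3.45 in the middle group and 3.36 in the high-sulfate group. At loci that fell it was 3.95, 4.54 and 4.68. The middle mean was closer to the high than to the low mean at 2096 of the 2492 risen loci and at 1947 of the 2207 fallen loci, and it lay between both at 1527 and 1671. Between middle and high sulfate with Cd, limma called 0 loci, with 1925 at an unadjusted p under 0.05. Between low and middle sulfate with Cd it called 4099 (17.7%). Both contrasts share libraries with the comparison described here. How often the middle mean was closer to the high mean over all tested loci was not counted.

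The same sulfate contrast without Cd, which shares no library with the one under Cd, called 830 loci (3.58%), 271 higher (1.17%) and 559 lower (2.41%) at low sulfate. That number fell to 244, 305 and 451 without low-sulfate library 1, 2 or 3 and to 362 and 219 without high-sulfate library 2 or 3, so it is less settled than the count under Cd. Under quantile normalization the split without Cd was 513 higher and 554 lower of 1067. Of the 2492 loci that rose under Cd, 152 were also called higher without Cd, 6.10% of the first list and 56.1% of the second. Of the 2207 that fell under Cd, 234 were also called lower without Cd, 10.6% of the first list and 41.9% of the second.

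Most changes under Cd had the same sign without Cd. The sign was shared by 1961 of the risen and 1825 of the fallen loci, and the median changes without Cd were 0.14 and -0.20 on the log2 scale, against 0.51 and -0.61 with Cd. Members were chosen for their change with Cd, so the larger medians there are in part fixed by the choice. Across the 23166 loci the correlation of the changes was r = 0.443, and how often the sign was shared over all of them was not counted. Called in opposite directions were 23 loci that rose with Cd and 3 that fell with Cd.

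The difference between the changes with and without Cd was called at 420 loci (1.81%). At 355 of them (1.53%) the change from high to low sulfate was more positive with Cd, and at 65 (0.281%) it was more negative. At 236 of the 420 the locus was higher at low sulfate with Cd and its estimate without Cd was below 0, and at 54 it was the reverse. Among the 420, 239 were called higher with Cd, 61 were called lower with Cd, and 105 were called lower without Cd and not called with Cd. This count also rests on single libraries: with Cd it was 141 and 250 without low-sulfate library 1 or 2 and 260 and 216 without high-sulfate library 1 or 3, and without Cd it was 147 and 144 without low-sulfate library 1 or 2 and 194, 236 and 190 without high-sulfate library 1, 2 or 3.

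**Figure D3:**
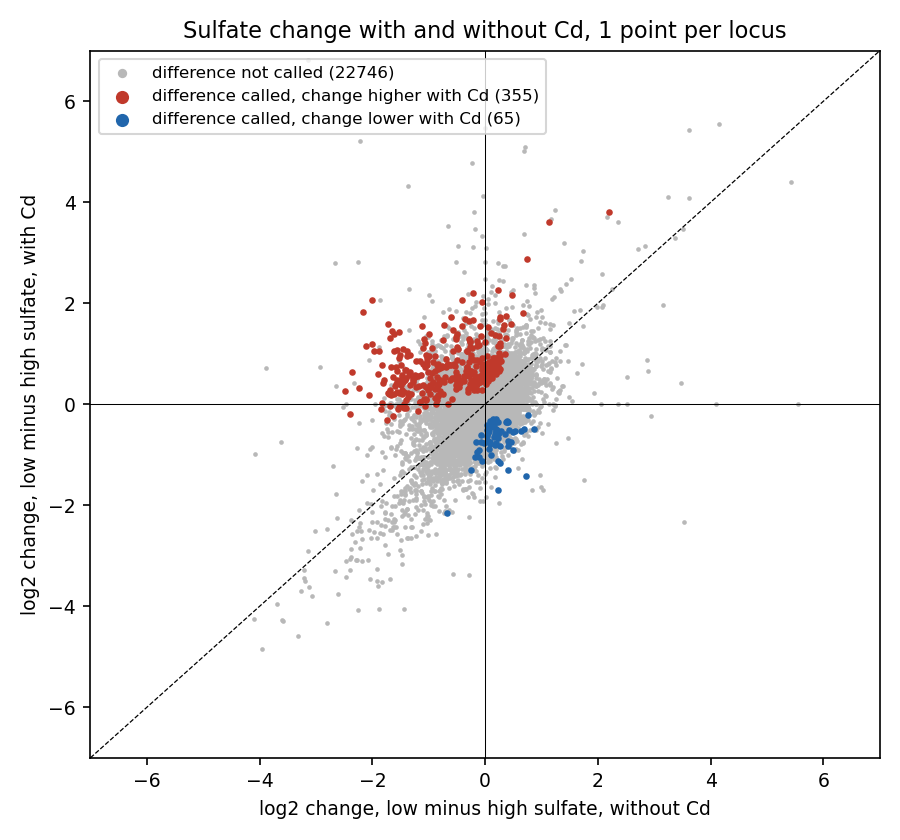
Log2 change at low against high sulfate without Cd (horizontal axis) and with Cd (vertical axis) for the 23166 tested loci, with the dashed line marking equal changes. Red points are the 355 loci whose change was called more positive with Cd and blue points the 65 called more negative, and most red points lie above 0 with Cd and at or below 0 without Cd.

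Of the loci named for this difference, Potri.005G154300 (chromosome 5, 14813786 to 14815682) had the smallest p. It was at 16.7, 15.1 and 12.1 FPKM at low and at 2.33, 2.71 and 3.06 FPKM at high sulfate with Cd. Without Cd it was at 7.60, 6.66 and 9.92 FPKM at low and 11.9, 12.0 and 8.92 FPKM at high sulfate, so that high sulfate held the lowest values with Cd and most of the higher ones without it. The changes were 2.07 ± 0.15 with Cd and -0.40 ± 0.15 without Cd, and their difference was 2.47 ± 0.21 in log2 units (limma, adjusted p = 0.00011). The other 3 loci with the smallest p in this direction, Potri.013G141700, the joined locus of Potri.013G138800, Potri.013G138900 and Potri.013G139000, and Potri.013G143300, all lie in 1 stretch of chromosome 13.

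In the other direction, Potri.008G210900 (chromosome 8, 16395480 to 16396763) stood at 8.80, 13.3 and 18.8 FPKM at low and at 44.5, 46.1 and 43.4 FPKM at high sulfate with Cd. Without Cd the levels were 35.8, 39.2 and 29.3 FPKM at low and 27.0, 28.8 and 32.8 FPKM at high sulfate, which overlap. The difference between the changes was -1.92 ± 0.30 in log2 units (limma, adjusted p = 0.0092). Potri.009G099800 (difference -0.89 ± 0.14), Potri.010G114200 (-0.72 ± 0.11) and Potri.003G206800 (-1.23 ± 0.19) behaved alike: each was lower at low sulfate with Cd, by 0.53 to 0.82 on the log2 scale in the fitted change, and had a positive estimate without Cd.

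The stretch of chromosome 13 from 14660316 to 14898256, running from Potri.013G136600 to Potri.013G143300, was delimited after its values were seen and is described without a test. It holds 39 tested loci, of which 11 have no identifier. Some of them share their centre with another locus, as XLOC_029275 and XLOC_030095 do, which both carry Potri.013G139200. Reads of such pairs could be split, so the counts that follow are of loci and not of separate places. With Cd, 37 of the 39 were higher at low than at high sulfate, 20 of them called, and 1 was called lower, where 10.8% and 9.53% of all tested loci were called. Without Cd, 31 of the 39 were lower at low sulfate, 1 of them called. The median change was 0.91 with Cd and -0.29 without Cd on the log2 scale, and the difference was called at 10 of the 39 (1.81% of all tested loci), each time more positive with Cd. Without high-sulfate library 1, the loci called higher numbered 13.

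The median FPKM over these 39 loci was 23.7, 22.2 and 15.2 in the low-sulfate libraries and 6.05, 7.84 and 5.83 in the high-sulfate libraries with Cd. At middle sulfate with Cd it was 6.90, 5.48 and 4.46. Without Cd it was 15.0, 8.05 and 12.2 at low and 14.7, 13.8 and 12.4 at high sulfate, which overlap. All 3 low-sulfate medians with Cd lay above all 3 without Cd, though low-sulfate library 3 with Cd did so narrowly, and all 3 high-sulfate medians with Cd lay below all 3 without Cd.

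Within the stretch, Potri.013G141700 (14851610 to 14852408) rose with Cd from 3.21 ± 0.536 to 12.2 ± 1.36 FPKM (SD, n = 3 each), and its difference between the changes was 1.94 ± 0.20 (limma, adjusted p = 0.00078). Potri.013G143300 (14896122 to 14898256) was at 31.3, 28.3 and 23.7 FPKM against 7.54, 10.1 and 8.27 FPKM with Cd, while without Cd it was lower at low sulfate, at 13.7 ± 3.73 against 22.9 ± 2.43 FPKM (SD, n = 3 each; limma, adjusted p = 0.045). The joined locus of Potri.013G138800, Potri.013G138900 and Potri.013G139000 was at 15.3, 22.2 and 21.4 FPKM against 6.05, 4.26 and 5.18 FPKM with Cd. The abundant XLOC_030107 also lies here. The 1 locus called lower joins Potri.013G142000 and Potri.013G142100, with a change of -0.89 ± 0.25 (limma, adjusted p = 0.024).

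Beyond the ends so chosen the pattern was not seen. Among the 26 tested loci within 200000 bases on either side, 0 were called higher and 2 lower with Cd by limma. Over all tested loci, 10.8% were called higher and 9.53% lower. The difference was called at 0 of the 26, beside 1.81% of all tested loci, and the median change of the 26 was -0.12 on the log2 scale. The 2 called lower and the 0 differences are near those shares. As the ends were set after the values were seen, the lack of the pattern outside them is in part fixed by that choice. Its inner part, 14719971 to 14769218, holds the longest run of adjacent tested loci called in the same direction, 9 loci with changes from 0.57 to 2.03. The 9 include XLOC_029275 and XLOC_030095, which share a centre and the identifier Potri.013G139200, and loci without an identifier close to them. They are thus not 9 separate places. The next longest run, 7 loci called higher on chromosome 10 (2680766 to 2934363), had a median change of 1.03 with Cd and 0.24 without Cd. Runs of 4 or more numbered 13 for higher and 4 for lower. Neighbouring loci can share reads, and how the authors counted reads that match several places is not given in the sources used here.

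**Figure D4:**
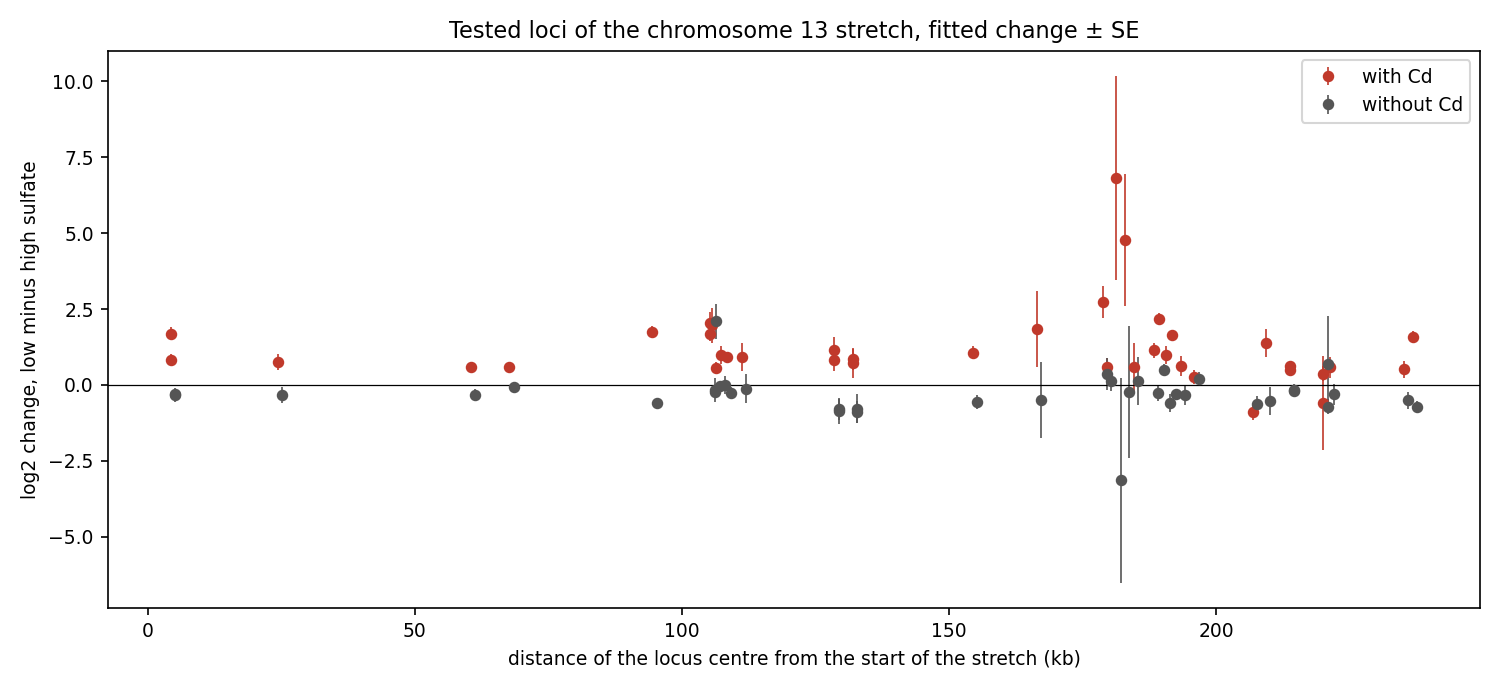
Fitted log2 change at low against high sulfate (points, with bars of 1 SE) for the 39 tested loci of the chromosome 13 stretch, with Cd in red and without Cd in grey (shifted slightly to the right), by distance from the start of the stretch in kb. Red points lie above 0 at 37 loci and grey points below 0 at 31, and the widest bars belong to XLOC_029292 and XLOC_029293, neither of them called.

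The microRNAs whose listed targets are described next were read in small RNA libraries of the same groups and are shown for the bases by which they pair with a transcript. Sequences are from the deposited degradome tables, 5′ to 3′ in DNA letters, with the seed (bases 2 to 8) in capitals. The suffixes after a name are the authors' marks for variants of the named sequence.

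stu-miR395a_1ss1CA: aTGAAGTGtttgggggaactc

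ptc-miR395a: cTGAAGGGtttggaggaactc

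ptc-miR1444a_R+1: tCCACATTcggtcaatgttcc

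ptc-miR397a: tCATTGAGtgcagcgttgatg

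mdm-miR827: tTAGATGAccatcaacgaaca

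ptc-miR472a: tTTTCCCTactccacccatccc

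ptc-miR472b: tTTTCCCAactccacccatccc

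mes-miR482_L-2R-2: tTCCCTACtccacccatt

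vvi-miR482: tCTTTCCTactcctcccattcc

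These 9 have 9 different seeds. Counted from the 5′ end, the miR395 forms differ by A1C, T7G and G14A (the first form's base, the position, the second form's base), and ptc-miR472a and ptc-miR472b differ by T8A. The 18 bases of mes-miR482_L-2R-2 match bases 3 to 20 of ptc-miR472a at 17 of 18 positions, so that the shift alone gives these near-identical sequences different seeds, and 6 tested loci are listed for both families.

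The miR395 reads themselves separated the groups. They made up 1.85%, 3.20% and 5.34% of the listed small RNA reads in the low-sulfate libraries with Cd and 0.00781%, 0.0107% and 0.0149% in the high-sulfate libraries. The means were 3.47% ± 1.76 and 0.0112% ± 0.00356 (SD, n = 3 each), a ratio of 311. With 3 libraries against 3, an exact permutation test cannot go below p = 0.10, and none was made.

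The degradome tables list 5 genes cut by miR395, and all 5 were tested. Of these 1 was called with Cd, a count near the 20.3% called over all tested loci. The 1 called was Potri.010G081200 (chromosome 10, 10711553 to 10715080), which fell from 35.6, 38.2 and 34.6 FPKM at high sulfate to 11.2, 11.9 and 12.8 FPKM at low sulfate with Cd. Its cut by stu-miR395a_1ss1CA was in category 0, the best of 0 to 4 (the cut site is the highest peak of the transcript), with 75 reads in the pool with Cd and 48 in the pool without. The groups lie far apart, the change was -1.52 ± 0.12 in log2 units (limma, adjusted p = 4.2e-06), and at middle sulfate the locus stood at 29.1, 33.0 and 37.0 FPKM. Without Cd it stood at 5.85 ± 0.742 against 30.3 ± 4.58 FPKM (SD, n = 3 each; change -2.19 ± 0.12), but the difference between the changes did not pass the test (0.67 ± 0.17, limma, adjusted p = 0.064).

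The other miR395 targets with strong cuts did not pass the test under Cd. Potri.008G159000 (chromosome 8, 10799021 to 10806057; category 0, 76 and 49 reads) was at 32.7, 43.5 and 31.5 FPKM at low and 55.5, 56.0 and 36.9 FPKM at high sulfate with Cd, which overlap (limma, adjusted p = 0.23), and stood higher at middle sulfate, at 60.8, 87.3 and 92.9 FPKM. Without Cd it was called lower, with a change of -1.17 ± 0.25 (limma, adjusted p = 0.020). Potri.002G092400 (chromosome 2, 6577832 to 6582212; category 0, 9 reads in each pool) was at 24.2, 19.8 and 19.7 FPKM against 19.3, 23.0 and 26.9 FPKM with Cd (limma, adjusted p = 0.71), and was called lower without Cd with a change of -0.73 ± 0.18 (limma, adjusted p = 0.035). For neither was the difference between the changes called (limma, adjusted p = 0.32 and 0.22).

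The remaining 2 miR395 targets have weaker cuts. Potri.017G076800 (category 2) was at 94.3 to 135 FPKM at low and 143 to 184 FPKM at high sulfate, groups that do not overlap but whose change of -0.50 ± 0.18 did not pass the test (limma, adjusted p = 0.059). Potri.015G073400 (category 4) was at 7.66 to 10.7 FPKM against 7.55 to 8.43 FPKM (limma, adjusted p = 0.24). The median change of the 5 was -0.44 with Cd and -0.73 without Cd, with 3 called lower without Cd, where 2.41% of all tested loci were called lower.

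Over all 23 planned families with a listed target, 206 tested loci are listed as cut. Of these, 30 were called higher and 22 lower, together 25.2% beside 20.3% of all tested loci, with a median change of 0.05 on the log2 scale. Without high-sulfate library 2 the calls among them numbered 31 in place of 52.

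Among the families known to act on transcripts of copper proteins, miR1444, miR397 and miR408 had targets called lower and miR398 had none by limma. Over all tested loci, 9.53% were called lower and 10.8% higher, and the families hold few tested targets each. miR1444, which in poplars cuts transcripts of polyphenol oxidases, has 10 listed genes, of which 5 were tested and 3 fell. Potri.001G388900 (chromosome 1, 40683040 to 40685189), cut by ptc-miR1444a_R+1 with 6445 reads in the pool with Cd and 6061 in the pool without, was at 88.9, 56.2 and 96.2 FPKM at low and at 359.8, 365 and 331 FPKM at high sulfate with Cd. All 3 middle-sulfate libraries (273, 273 and 215 FPKM) lay between these groups. The change was -2.15 ± 0.20 with Cd (limma, adjusted p = 1.2e-05) and -0.68 ± 0.20 without Cd, and the difference of -1.47 ± 0.28 was called (limma, adjusted p = 0.019).

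The neighbouring miR1444 targets Potri.001G387900 and Potri.001G388800 fell by 1.52 ± 0.37 and 1.53 ± 0.36 on the log2 scale with Cd (limma, adjusted p = 0.0099 and 0.0078). Both were listed on cuts of category 2, with at most 1 read at a site in the pool with Cd and 4 in the pool without. Low-sulfate library 1 lay highest of its group at both, at 6.26 and 9.95 FPKM, below the lowest high-sulfate values of 6.88 and 12.7 FPKM. Both calls were lost when only the 6 libraries compared were fitted. Potri.001G388200, a listed miR1444 target that lies between these 2 loci, was not called (-0.22 ± 0.18, limma, adjusted p = 0.40). Genes of such a cluster can share reads. The share of miR1444 reads was 0.563%, 1.23% and 1.15% at low and 1.03%, 1.41% and 1.05% at high sulfate, so that the groups overlap.

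miR397, which guides the cutting of laccase transcripts, has 11 listed genes, of which 6 were tested and 3 fell. Potri.001G087500 was at 61.7, 52.1 and 61.6 FPKM at low and 88.8, 82.2 and 87.9 FPKM at high sulfate, a change of -0.56 ± 0.11 (limma, adjusted p = 0.0025), on a cut of category 4 only. Potri.011G120200 and Potri.011G120300, neighbours on chromosome 11 with cuts of category 1, fell by 0.83 ± 0.21 and 0.88 ± 0.21 in log2 units (limma, adjusted p = 0.012 and 0.0099). All 6 estimates were below 0, and for none of the 3 named was the difference from the change without Cd called. The reads of miR397 made up 0.0266%, 0.117% and 0.0857% at low and 0.0919%, 0.128% and 0.102% at high sulfate, which overlap.

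miR408, which acts on plantacyanin and laccase transcripts, had 4 tested targets, of which 1 fell: Potri.018G047800, at 43.1, 40.6 and 39.4 FPKM against 52.3, 51.6 and 70.0 FPKM (-0.47 ± 0.12, limma, adjusted p = 0.013). Its cut was of category 2, with 2 reads in the pool with Cd. Of the 3 tested miR408 loci with cuts of category 0 or 1, 0 were called higher and 0 lower. The single tested target of miR398, known for copper/zinc superoxide dismutase, was not called and had a positive estimate (0.21). The miR398 reads made up 0.414% ± 0.153 of listed reads at low and 0.784% ± 0.156 at high sulfate (SD, n = 3 each), groups that do not overlap.

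Families tied to phosphate supply also had smaller shares of reads at low sulfate. miR827, which acts on phosphate transport genes, made up 0.0248%, 0.235% and 0.276% of reads at low and 0.419%, 0.711% and 0.673% at high sulfate, and miR399, which acts on an ubiquitin-conjugating enzyme of phosphate homeostasis, 0.0527%, 0.240% and 0.224% against 0.688%, 1.23% and 1.22%. For both, all low-sulfate libraries lay below all high-sulfate libraries. Of the 3 tested miR827 targets 2 were called higher at low sulfate, beside 10.8% called higher and 9.53% lower of all tested loci. With 3 tested targets in each of these families, the counts are given as values only. Potri.001G111400 was at 40.7, 36.7 and 29.2 FPKM against 26.2, 22.8 and 21.0 FPKM (0.58 ± 0.15, limma, adjusted p = 0.015), a call lost without low-sulfate library 1 (limma, adjusted p = 0.070). Potri.003G120600 was at 71.8, 53.7 and 49.4 FPKM against 35.7, 36.7 and 43.6 FPKM (0.57 ± 0.17, limma, adjusted p = 0.028), a call lost without low-sulfate library 1, high-sulfate library 1 or high-sulfate library 2 (limma, adjusted p = 0.13, 0.089 and 0.086). Of the 3 tested miR399 targets, those with cuts of category 0, Potri.004G043500 and Potri.011G052600, had changes of -0.72 ± 0.33 and -0.27 ± 0.19 that did not pass the test (limma, adjusted p = 0.14 and 0.34). Potri.003G038500 was called higher (0.90 ± 0.30, limma, adjusted p = 0.046), on a cut of category 2, and lost the call without low-sulfate library 1, high-sulfate library 1 or high-sulfate library 2 (limma, adjusted p = 0.20, 0.12 and 0.15). Its call was also lost without the filter on low values and with replicate number as a block. The calls of Potri.001G111400, Potri.003G120600 and Potri.003G038500 were all lost when only the 6 libraries compared were fitted.

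miR472 and miR482, which act on transcripts of NBS-LRR immune receptors, had the most risen targets. Of the 38 tested loci listed for either family, 16 were called higher (42.1%, beside 10.8% of all tested loci) and 1 lower, 31 had a positive change, and the median change was 0.38 on the log2 scale beside 0.02 over all tested loci. The calls higher numbered 8 without low-sulfate library 2 and 10 without high-sulfate library 2, and 8 when only the 6 libraries were fitted, while the median lay between 0.31 and 0.39 with any one library left out. With a pseudocount of 5 FPKM the median was 0.19, and over the 24 loci averaging 5 FPKM or more it was 0.21, with 9 called higher and 2 lower. Without Cd, 0 of the 38 were called by limma in either direction, where 3.58% of all tested loci were called, so that the count is near that share. The difference between the changes was called at 5 of them, beside 1.81% of all tested loci.

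Potri.017G133600 (chromosome 17, 14316068 to 14319251), cut by ptc-miR472a in category 0 with 22 and 59 reads in the pools with and without Cd, was at 8.91, 7.80 and 6.27 FPKM at low and 3.60, 3.14 and 2.13 FPKM at high sulfate with Cd. Without Cd it stood higher throughout the high-sulfate group, at 14.1, 14.0 and 14.9 FPKM, than at low sulfate, at 7.28, 11.1 and 12.0 FPKM. The changes were 1.14 ± 0.19 and -0.49 ± 0.19, and the difference of 1.63 ± 0.27 was called (limma, adjusted p = 0.011). Potri.005G041300 (chromosome 5, 3015680 to 3027746), listed for both families with cuts of category 2 in the pool without Cd, was at 17.8 ± 0.287 against 10.4 ± 0.816 FPKM with Cd (SD, n = 3 each), the smallest p of the 38 (0.72 ± 0.08, limma, adjusted p = 3.4e-05). Potri.009G073300 was at 44.9, 43.5 and 45.4 FPKM against 33.5, 33.4 and 33.9 FPKM with Cd, a small but even rise of 0.40 ± 0.06, and at 48.4, 47.3 and 48.6 FPKM against 50.3, 46.7 and 46.6 FPKM without Cd. Potri.005G042400, also listed for both families, rose by 0.66 ± 0.10 (limma, adjusted p = 0.00049).

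The reads of these families differed little. miR472 made up 32.1%, 31.5% and 26.4% of listed reads at low and 28.7%, 24.5% and 23.5% at high sulfate, and miR482 12.3%, 11.1% and 10.9% against 10.9%, 10.1% and 10.7%. Both ranges overlap, that of miR482 narrowly.

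In the families of development and growth, targets were called in both directions, and the counts that follow stand beside 10.8% called higher and 9.53% called lower over all tested loci. Of 18 tested miR156 targets 5 rose and 3 fell, among them Potri.011G055900 at 37.0, 28.8 and 35.1 FPKM against 16.6, 13.4 and 13.6 FPKM (1.16 ± 0.18, limma, adjusted p = 0.00051) and Potri.013G027000, which fell by 0.58 ± 0.13 with Cd and by 0.73 ± 0.13 without Cd on the log2 scale. miR156 acts on SPL transcription factors of phase change. Potri.011G055900 and Potri.013G027000 were listed on cuts of category 2 and category 4. Of the 5 tested miR156 loci with cuts of category 0 or 1, 1 was called higher and 0 lower. Of 31 tested miR396 targets, a family known for growth-regulating factors, 3 rose and 3 fell, which is near those shares. All these calls were on weaker cuts: of the 12 tested miR396 loci with cuts of category 0 or 1, 0 were called higher and 0 lower. The locus of Potri.003G222700 and Potri.003G222800 was at 461, 452 and 434 FPKM against 227, 198 and 231 FPKM (1.04 ± 0.13, limma, adjusted p = 0.00013), and Potri.009G144600 at 6.62, 5.75 and 10.4 FPKM against 39.5, 26.8 and 43.0 FPKM (-2.14 ± 0.38, limma, adjusted p = 0.0015). The miR396 reads made up 2.22% ± 0.305 of listed reads at low and 4.43% ± 0.329 at high sulfate (SD, n = 3 each), with no overlap.

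Of 13 tested miR169 targets (the family of NF-YA subunits), 2 fell with Cd and both differed from their change without Cd. Both were on weaker cuts, as 0 of the 4 tested miR169 loci with cuts of category 0 or 1 were called lower. Potri.016G068200 was at 2.54, 3.43 and 3.52 FPKM against 4.63, 5.91 and 7.74 FPKM with Cd, and at 8.22, 7.91 and 8.51 FPKM against 6.63, 5.40 and 5.24 FPKM without Cd, so that the order of the groups turned (difference -1.21 ± 0.21, limma, adjusted p = 0.012). Potri.006G201900 had overlapping groups with Cd and its call was lost without any one of 5 libraries, low-sulfate library 1 or 3 or any high-sulfate library (limma, adjusted p from 0.060 to 0.20). That call was also lost with a pseudocount of 5 FPKM, without the filter on low values, with replicate number as a block, and when only the 6 libraries compared were fitted. The miR169 reads were few, 0.0947% ± 0.0360 at low and 0.0272% ± 0.00860 at high sulfate (SD, n = 3 each), and did not overlap.

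In the auxin-related families, 1 of 11 tested miR160 targets (auxin response factors) rose and 1 fell. The riser, Potri.001G165800, was at 12.2, 11.7 and 12.8 FPKM against 8.80, 9.63 and 8.62 FPKM (0.41 ± 0.09, limma, adjusted p = 0.0068). Its cut was of category 4, with 1 read in the pool without Cd only. The 1 that fell, Potri.016G090300, had a cut of category 0 and lost its call in 7 of 13 alternative runs. Of the 8 tested miR160 loci with cuts of category 0 or 1, 0 were called higher and 1 lower. Of 8 miR167 targets 2 rose and of 5 miR164 targets 1 fell. Of 23 miR172 targets 2 fell and of 8 miR171 targets 1 fell. Counts this small, beside 10.8% higher and 9.53% lower over all tested loci, are given as values only. None of the tested targets of miR166 (5), miR319 (11), miR393 (5), miR403 (1), miR828 (4) or miR1448 (1) was called by limma in either direction.

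**Figure D5:**
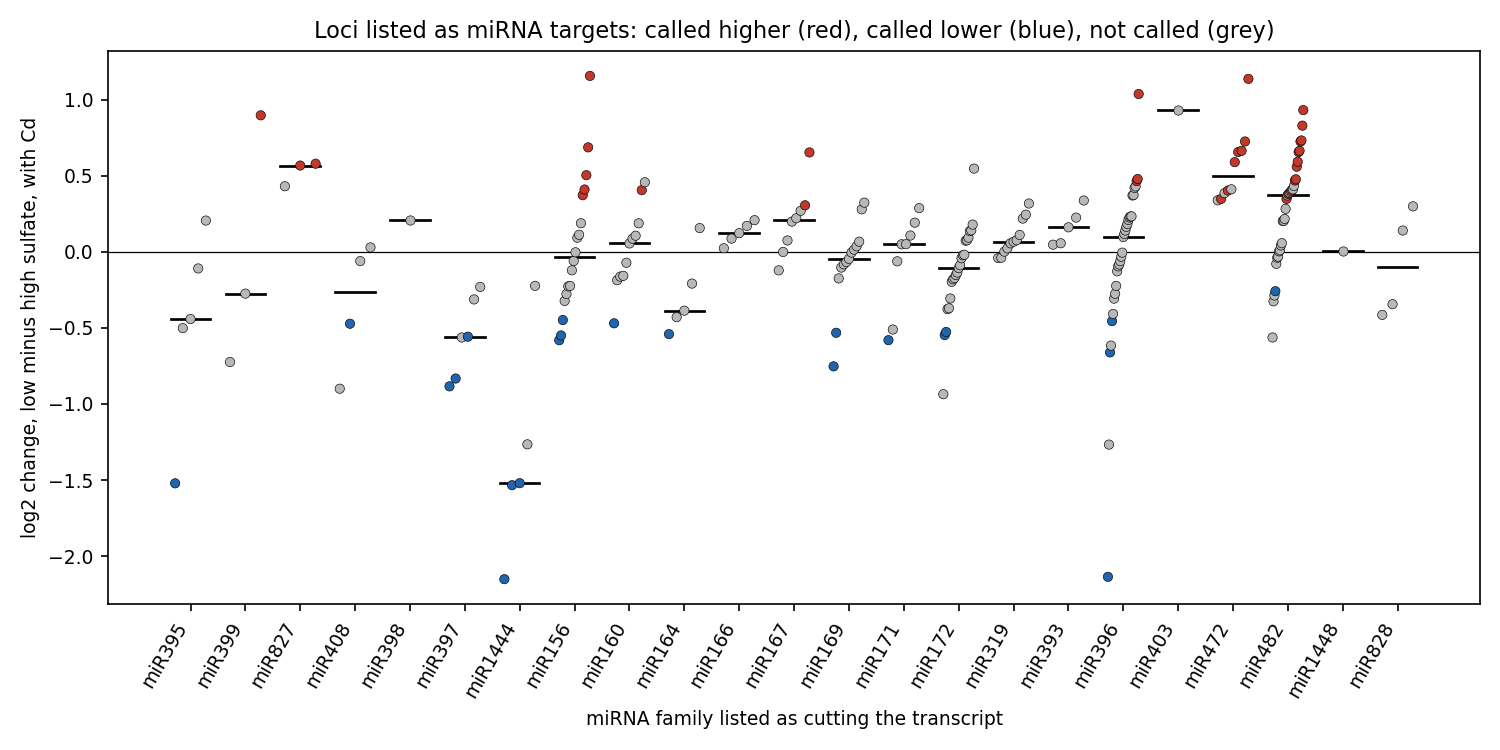
Log2 change at low against high sulfate with Cd (vertical axis) of every tested locus listed as cut by each of 23 microRNA families, with a bar at the family's median. The targets of miR1444 and miR397 lie below 0 and those of miR472 and miR482 mostly above 0, while the larger families miR172 and miR319 centre on 0; a locus listed for several families appears under each.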

How the data were processed

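The mRNA values are FPKM that the authors deposited per locus. The submitters' processing notes name TopHat2 2.1.1. The sources used here do not give the genome build, annotation or quantifier. Log2(FPKM + 1) of loci with a mean of at least 1 FPKM was fitted with limma 3.58.1 in R 4.3.3 (trend, robust empirical Bayes) with 6 group means over 18 libraries (12 residual degrees of freedom). Tests were two-sided, with Benjamini-Hochberg adjustment over all tested loci and calls at an adjusted p under 0.05. Fold changes on this scale understate the change of low loci. The fit was tested on simulated data. Standard errors are limma's.

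The small RNA values are expected counts that the authors deposited per hairpin, with a normalized signal beside them, per the file headers. They were summed by family and given as percent of listed reads. Low and high libraries listed 1065108 to 1320277 and 498205 to 2428774 such reads. The authors deposited for the degradome, 1 pool of 9 RNAs per Cd level, raw read counts per cut site, an alignment score and a category. Replicate numbers were taken from the titles.

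Loci named are the 2 largest changes in each direction with an identifier and groups that do not overlap, the 2 smallest p in each direction, the 3 most abundant called loci in each direction, all miR395 targets, up to 3 called targets of each other family, and the 4 smallest p of the difference in each direction. The 37 gene lists defined by annotation words could not be matched. Members and lists were chosen with earlier results of these data known. Alternatives were other pseudocounts, filters and scalings, a replicate block, a fit of the 6 libraries alone, and leaving out each library.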

Additional observations from a re-analysis of the deposited data

Results flagged for a closer look

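At 14 of the loci named in the text, the change from high to low sulfate with Cd differed from the change without Cd, each by a limma test of the difference itself with an adjusted p under 0.05. The values are the change with Cd minus the change without Cd on the log2 scale.

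At 7 of the 14 the change was more positive with Cd. The difference was 2.47 at Potri.005G154300, 1.94 at Potri.013G141700, 2.34 at the joined locus of Potri.013G138800, Potri.013G138900 and Potri.013G139000, and 2.30 at Potri.013G143300. The last 3 lie in the same chromosome 13 stretch, though not side by side, and whether they share reads was not tested. It was 1.63 at Potri.017G133600, a listed miR472 target, and 0.49 at Potri.005G041300, listed for miR472 and miR482. The same direction held at Potri.009G073300, a listed miR482 target, at 0.39.

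In the others the change was more negative with Cd. The difference was -1.92 at Potri.008G210900, -1.23 at Potri.003G206800, -0.89 at Potri.009G099800 and -0.72 at Potri.010G114200. It was -1.47 at Potri.001G388900, the miR1444 target with the most reads at its cut site, and -1.21 at Potri.016G068200 and -1.07 at Potri.006G201900, both listed for miR169.

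With each of the 12 libraries of the 4 groups left out in turn, the call of the difference was lost in 11 of 12 cases at Potri.006G201900 and Potri.009G073300, in 9 of 12 at Potri.005G041300 and in 1 of 12 at Potri.001G388900. It was lost in 0 of 12 at each of the other 10 loci.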

How the results depend on the processing

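Under Cd, the 4699 calls between low and high sulfate numbered 2226 when only the 6 libraries compared were fitted, and 2963 to 4502 with 1 of those libraries left out. The 764 calls of at least 2-fold numbered 416 with a pseudocount of 5 FPKM and 581 to 849 with 1 library left out. The 830 calls without Cd numbered 219 to 1048 with 1 library left out. The 420 calls of the difference numbered 141 to 384 with 1 library left out and 242 with the replicate block. Of the 57 named loci 53 were called, and 35 when only the 6 libraries were fitted, 40 to 47 with 1 left out. Of the 206 listed microRNA targets 52 were called, and 31 to 44 with 1 library left out. Quantile normalization gave 513 higher and 554 lower without Cd. Potri.002G092400, not called, turned from -0.11 to 0.0025 on the log2 scale without high-sulfate library 3, and reached -0.23 without high-sulfate library 1. The cause of these moves was not tested, other than that fewer libraries enter the leave-outs and the 6-library fit.

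Of the 53 named calls, 33 held under every alternative run and 20 were lost under at least 1, 13 of them only in the leave-outs or the 6-library fit; 1 of 793 values of named loci changed sign. The shares of miR395 reads were the same from the authors' normalized signal. Samples share only a replicate number: same-numbered low and high libraries with Cd had deviations correlated at -0.0863, -0.00570 and 0.0226, and not every sample correlated best with its own number. With the replicate block the calls under Cd numbered 4409 and those without Cd 674. FPKM files hold no library totals, so what depth limits was not tested.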
